A study of Mus musculus with 6 samples.

Results

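The genes that write, copy and remove DNA methylation were followed in mouse spermatogonial cells after silencing of the noncoding RNA mrhl. The set was Dnmt1, Dnmt3a, Dnmt3b, Dnmt3l, Uhrf1, Uhrf2, Tet1, Tet2, Tet3 and Tdg, and its members were all probe sets of the array paired with exactly 1 gene symbol among these 10. A probe set is a group of short probes read together as a single value. The rule found 22 of 45037 probe sets, for 9 of the 10 genes. Tdg had no such probe set, because its 3 probe sets were also paired with the pseudogenes Tdg-ps and Tdg-ps2, so Tdg was not read. Of the 22, 20 were bright enough to be tested, and the single probe set of Dnmt3l and 1 of 4 for Tet1 were not.

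The cells were GC1-Spg, an established mouse line of spermatogonial origin, transfected with 100 nM of siRNA against mrhl or with 100 nM of scrambled siRNA, and harvested 44 h later. Each group held 3 biological replicates, each on its own 1-colour Affymetrix array. All 6 cultures carried a transfected siRNA, and all came from a single cell line, so no untransfected cells and no second line stand beside them. The RNA mrhl is transcribed from an intron of Phkb, and its own level and the quantitative PCR of the silencing were not analysed here.

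In mammals, DNA methylation is laid down mostly on cytosines followed by guanine (CpG). Dnmt3a and Dnmt3b methylate sites that carried no mark before, and Dnmt3l, which has no catalytic activity of its own, assists them in germ cells. At replication Uhrf1 binds half-methylated DNA and brings in Dnmt1, which copies the pattern to the new strand. Tet1, Tet2 and Tet3 oxidise methylcytosine, and Tdg cuts out the oxidised products so that base excision repair can restore plain cytosine. In the male germ line, new methylation is set in fetal prospermatogonia and maintained in the dividing spermatogonia after birth.

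Start-site windows of 300 bases (250 before to 50 after an annotated start) came from RefSeq, build GRCm38.p6, where all 10 genes matched, with 17 windows in all. The windows of Dnmt1 and Uhrf1 below are shown because both genes are read brightly on these arrays and both windows hold a match to an E2F motif, the element through which many S phase genes are controlled. The Dnmt3l window is shown as its counterpart, from the gene whose probe set was too dim to test. Capitals mark TTTCGCGC or TTTGGCGC, on either strand, in the first pair, and every CpG in Dnmt3l. The Dnmt1 window lies at chr9:20952574-20952873 on the minus strand, the Uhrf1 window at chr17:56304063-56304362 on the plus strand, and the Dnmt3l window at chr10:78042037-78042336 on the plus strand.
Dnmt1: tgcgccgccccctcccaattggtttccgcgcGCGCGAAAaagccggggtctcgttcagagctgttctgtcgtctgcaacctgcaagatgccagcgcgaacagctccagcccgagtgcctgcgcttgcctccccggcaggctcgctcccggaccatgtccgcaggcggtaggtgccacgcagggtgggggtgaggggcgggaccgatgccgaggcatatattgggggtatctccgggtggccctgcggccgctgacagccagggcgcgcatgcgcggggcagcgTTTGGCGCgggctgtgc
Uhrf1: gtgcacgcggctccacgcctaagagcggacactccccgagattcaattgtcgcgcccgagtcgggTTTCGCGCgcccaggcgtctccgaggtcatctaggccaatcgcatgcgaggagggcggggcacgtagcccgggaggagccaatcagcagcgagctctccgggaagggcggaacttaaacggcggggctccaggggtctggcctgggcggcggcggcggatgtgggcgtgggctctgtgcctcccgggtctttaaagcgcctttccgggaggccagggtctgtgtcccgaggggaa
Dnmt3l: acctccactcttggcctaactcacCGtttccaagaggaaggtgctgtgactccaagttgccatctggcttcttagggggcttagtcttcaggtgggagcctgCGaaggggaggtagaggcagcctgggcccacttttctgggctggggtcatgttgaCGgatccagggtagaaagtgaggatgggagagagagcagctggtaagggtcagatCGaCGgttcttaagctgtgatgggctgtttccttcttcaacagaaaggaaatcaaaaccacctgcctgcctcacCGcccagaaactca

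The motif TTTCGCGC, or its reverse complement GCGCGAAA, was found in 2 of the 17 windows, these 2, and in 0.323% of all 32851 windows. In Dnmt1 it starts 219 bases before the annotated start of the window shown, and in Uhrf1 185 bases before that of its window. Both genes also have windows of annotated starts further upstream, and both matches lie past those starts. The related TTTGGCGC was found in the same Dnmt1 window, 33 bases past its start, without overlap, and in 0.514% of all windows. One more E2F form, TTCCCGCC, was found in the other Uhrf1 window and in 2.19% of all. Other searches, all on both strands, gave GGGCGG in 13 of the 17 windows (35.7% of all), CCAAT in 6 (37.4%), CACGTG in 3 (7.15%) and CGCATGCG in 3 (1.87%). The motifs were chosen with these windows in view, and a match is a description of the letters. CpG dinucleotides, the substrate of these enzymes, numbered 33 in each of the Dnmt1 and Uhrf1 windows shown and 6 in that of Dnmt3l, against a median of 7 over all windows. The other windows held 2 and 12 for Dnmt1, 12 for Uhrf1, and 4 and 3 for Dnmt3l, so the count depends on the start site taken. The only Tet2 window held 57, at percentile 99.87 of all windows.

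None of the DNA methylation genes passed the test between the groups. Of 20 tested probe sets, 0 had an adjusted p under 0.05 (limma, smallest adjusted p = 0.965), where 0% of all 33778 tested probe sets did. At an unadjusted p under 0.05 the count was 0 of 20 members, against 3.44% of all probe sets, and no member had groups that did not overlap, against 8.40% of all. The log2 fold changes of the 20, mrhl siRNA minus scrambled siRNA, ran from -0.44 to 0.12 with a median of -0.12, and 15 were negative. Over all tested probe sets the median was -0.033 and 56.2% were negative. The 95% interval lay within -1 and 1, a 2-fold difference in either direction, for 19 of the 20 members. The same held for 29556 of all 33778 tested probe sets. These arrays thus bound most of the members' differences but do not show that the levels were equal. The labels call the replicates biological and the design text speaks of 3 independent experiments, so p-values measure the spread between these cultures of a single line. In RNA of whole cultures, fewer cells with a transcript and less of it per cell cannot be told apart.

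**Figure D1:**
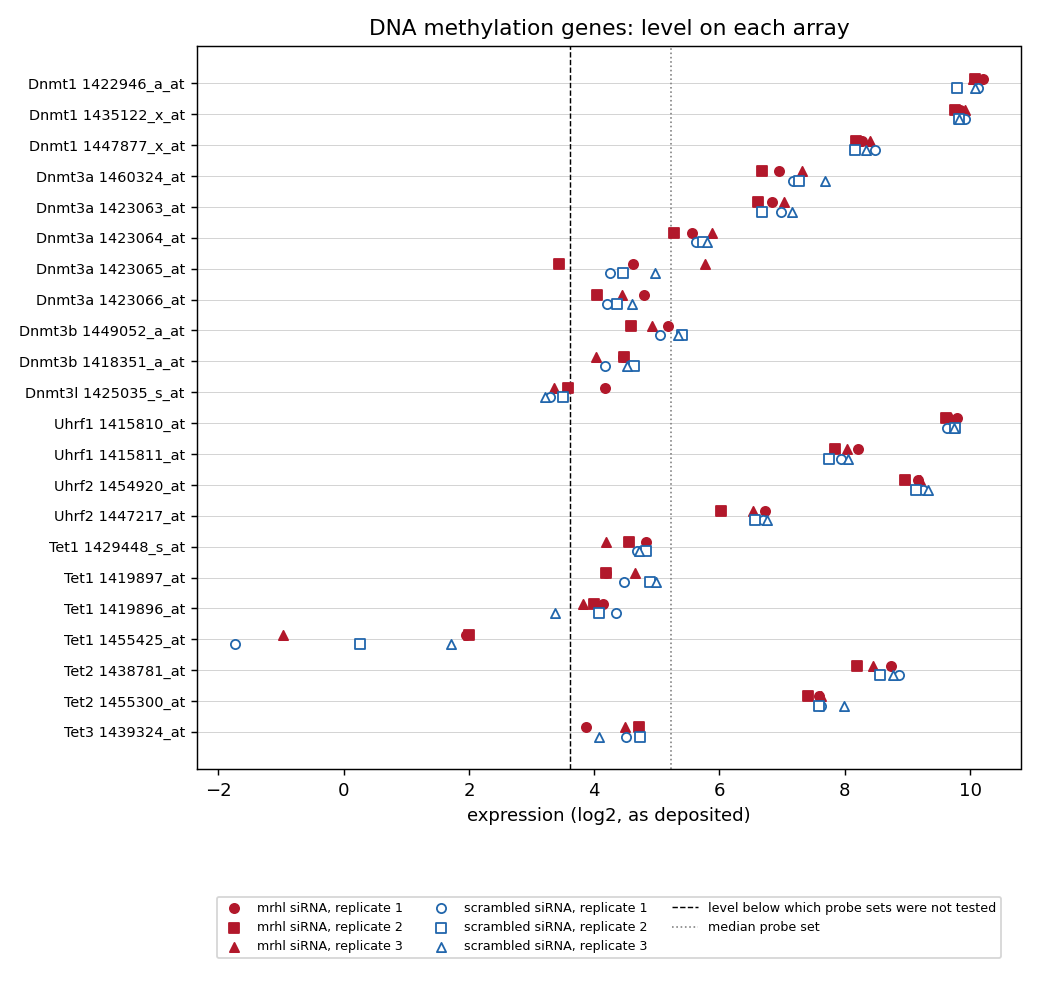
Log2 expression of every member probe set on each array (x axis, log2 as deposited). Filled red symbols are mrhl siRNA and open blue symbols scrambled siRNA, with 1 shape per replicate number. The dashed line is the level of 3.62 below which probe sets were not tested, and the dotted line the median probe set at 5.23. Filled and open symbols overlap in all 22 rows, and Dnmt3b, Dnmt3l, Tet1 and Tet3 lie near or below the median throughout.

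The maintenance pair, Uhrf1 and Dnmt1, stood above the median level on all 5 of their probe sets, with SEs of 0.132 to 0.161. The brighter Uhrf1 probe set, 1415810_at, had log2 levels of 9.80, 9.61 and 9.69 after mrhl siRNA and 9.63, 9.76 and 9.74 after scrambled siRNA. The groups interleave, with both the highest and the lowest array in the mrhl siRNA group. Its log2 fold change was -0.0088 (SE 0.135, 95% interval -0.33 to 0.31, limma adjusted p = 0.997), and with quantile normalization or with array medians set to 0 its sign turned, to 0.022 and 0.0024. The other Uhrf1 probe set, 1415811_at, averaged 8.03 ± 0.18 after mrhl siRNA and 7.92 ± 0.15 after scrambled siRNA (SD, n = 3 each), a log2 fold change of 0.12 (SE 0.161).

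Dnmt1, the maintenance methyltransferase itself, was read by 3 probe sets. On 1422946_a_at its log2 levels were 10.21, 10.07 and 10.06 after mrhl siRNA and 10.13, 9.79 and 10.07 after scrambled siRNA. Scrambled siRNA replicate 2 stands lowest, and the other 5 arrays lie close together. The fit gave a log2 fold change of 0.11 with an SE of 0.151 (95% interval -0.24 to 0.47, limma adjusted p = 0.965). The other Dnmt1 probe sets, 1435122_x_at and 1447877_x_at, had -0.011 (SE 0.132) and -0.05 (SE 0.151). The sign of 1435122_x_at turned to 0.025 with quantile normalization. The suffix x marks probe sets with some probes that can match other transcripts, so 1422946_a_at is the most specific of the 3. No direction can be read for Dnmt1.

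Uhrf2, a paralog of Uhrf1 that also binds modified DNA but does not replace it in maintenance, was lower on average on both of its probe sets. On 1454920_at the log2 levels were 9.16, 8.96 and 9.20 after mrhl siRNA and 9.25, 9.14 and 9.33 after scrambled siRNA. The difference was negative in 3 of 3 replicate numbers, but the groups overlap, and the log2 fold change of -0.13 (SE 0.143, 95% interval -0.47 to 0.20) did not pass (limma adjusted p = 0.965). On the dimmer 1447217_at the value was -0.24 (SE 0.205), with mrhl siRNA replicate 2 at 6.02 and the other 5 arrays between 6.54 and 6.75. Without that array the values were -0.06 for 1454920_at and -0.038 for 1447217_at. Without both arrays of replicate number 2 the values were -0.11 and -0.088.

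Among the de novo enzymes, Dnmt3a was read by 5 probe sets that differed in how they varied. The brightest, 1460324_at, had log2 levels of 6.95, 6.67 and 7.32 after mrhl siRNA and 7.17, 7.28 and 7.68 after scrambled siRNA. Each mrhl siRNA array lay below the scrambled siRNA array of its own number, by differences of -0.23, -0.61 and -0.36, while mrhl siRNA replicate 3 lay above scrambled siRNA replicates 1 and 2. Between the groups the log2 fold change stood at -0.40 with an SE of 0.219 (95% interval -0.91 to 0.12), a level 0.76 times that of scrambled siRNA, and it did not pass (limma adjusted p = 0.965). The other Dnmt3a probe sets had -0.11 (1423063_at), -0.15 (1423064_at), 0.04 (1423065_at, SE 0.535) and 0.03 (1423066_at, SE 0.222). Both positive values came from probe sets below the median level and are far smaller than their SEs, so their sign cannot be read. The 3 probe sets above the median level were negative, and none of them passed. The signs of 1423065_at and 1423066_at turned to -0.26 and -0.029 with array weights. The widest spread of any tested member was on 1423065_at, whose mrhl siRNA arrays lay at 4.62, 3.44 and 5.77 and whose scrambled siRNA arrays lay at 4.25, 4.47 and 4.98.

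Dnmt3b, the other de novo enzyme, was dim, with both probe sets below the median probe set's level of 5.23. On 1449052_a_at the log2 levels were 5.18, 4.59 and 4.93 after mrhl siRNA and 5.06, 5.41 and 5.34 after scrambled siRNA. In replicate number 1 the mrhl siRNA array was the higher, and in numbers 2 and 3 it was the lower. This gave a log2 fold change of -0.37 with an SE of 0.195 (95% interval -0.82 to 0.09, limma adjusted p = 0.965). On 1418351_a_at it was -0.13 (SE 0.194).

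Dnmt3l, the germ cell cofactor of the de novo enzymes, had log2 levels of 4.17, 3.58 and 3.36 after mrhl siRNA and 3.29, 3.49 and 3.22 after scrambled siRNA. Its mean lay below the 3.62 needed for testing, so a signal above background is not shown. In a fit without that filter its log2 fold change was 0.37 (SE 0.244, limma adjusted p = 0.978). Replicate 1 after mrhl siRNA, at 4.17, stands above the other 5 arrays, which lie between 3.22 and 3.58.

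Of the Tet enzymes, Tet2 was the only one whose probe sets lay above the median level. On 1438781_at its log2 levels were 8.74, 8.20 and 8.46 after mrhl siRNA and 8.86, 8.57 and 8.78 after scrambled siRNA. The difference was negative in 3 of 3 replicate numbers, and only mrhl siRNA replicate 1 reached into the range of the scrambled siRNA arrays. The fit gave a log2 fold change of -0.27 with an SE of 0.182 (95% interval -0.70 to 0.15, limma adjusted p = 0.965). The second Tet2 probe set, 1455300_at, was also negative in 3 of 3 numbers, with a log2 fold change of -0.19 (SE 0.165). Without mrhl siRNA replicate 2 the Tet2 values were -0.14 for 1438781_at and -0.12 for 1455300_at, and without scrambled siRNA replicate 3 that of 1455300_at was -0.06. Without both arrays of replicate number 2 they were -0.22 for 1438781_at and -0.19 for 1455300_at.

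Tet1 had the most negative fold change of any member, on 1419897_at. Its log2 levels were 4.19, 4.18 and 4.65 after mrhl siRNA and 4.47, 4.90 and 4.98 after scrambled siRNA. The groups overlap only through mrhl siRNA replicate 3, which lay above scrambled siRNA replicate 1. Between the groups the log2 fold change stood at -0.44 with an SE of 0.205 (95% interval -0.92 to 0.04), a level 0.74 times that of scrambled siRNA, which did not pass (limma adjusted p = 0.965). The other tested Tet1 probe sets had -0.22 (1429448_s_at, SE 0.188) and 0.05 (1419896_at, SE 0.258). The positive value is far smaller than its SE, so its sign cannot be read. The fourth, 1455425_at, lay between -1.74 and 2.01 on the 6 arrays and was not tested. Tet3, read by 1439324_at alone, had log2 levels of 3.86, 4.71 and 4.49 after mrhl siRNA and 4.51, 4.74 and 4.07 after scrambled siRNA, a log2 fold change of -0.08 (SE 0.268).

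**Figure D2:**
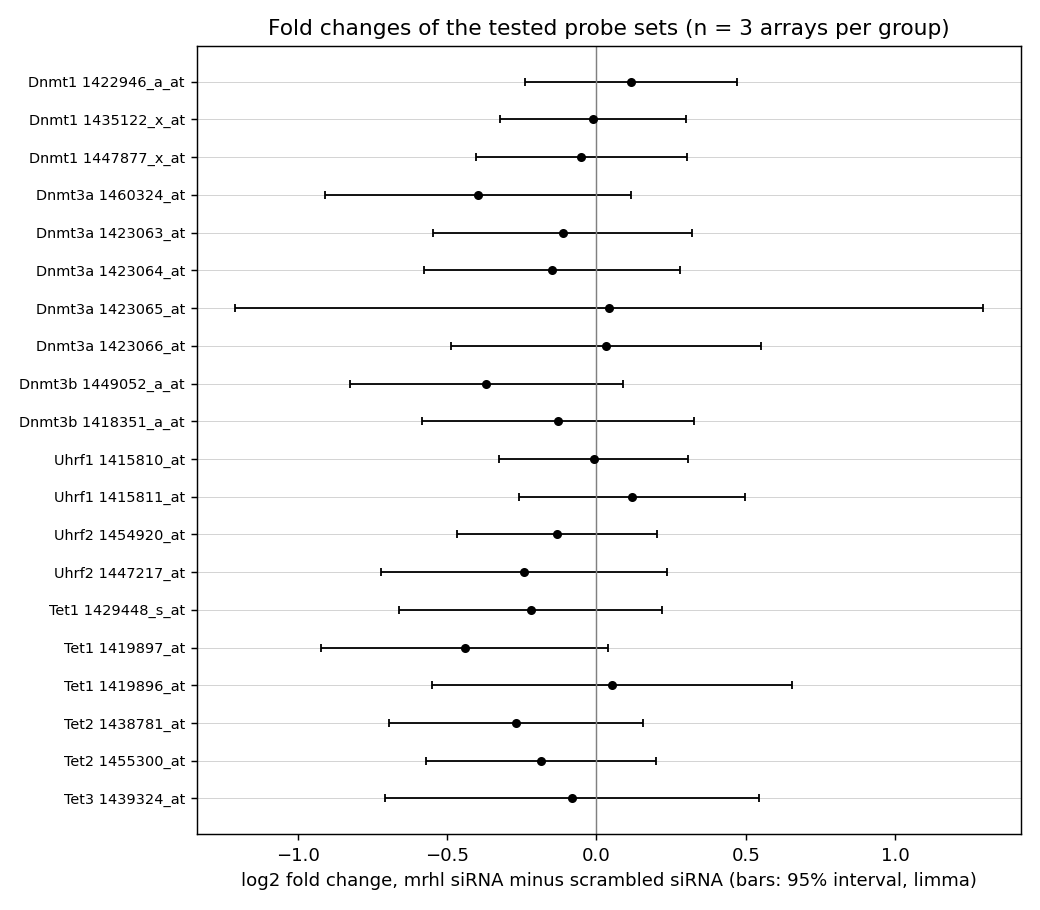
Log2 fold change of each tested member probe set, mrhl siRNA minus scrambled siRNA (points), with the 95% interval of the limma fit (bars), from 3 arrays per group. The points lie between -0.44 and 0.12, and every interval of this fit, which has no replicate block, crosses 0.

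The 2 groups share replicate numbers, which were read as pairs. With the replicate number as a block, 0 of the 20 members had an adjusted p under 0.05 (limma, smallest adjusted p = 0.487), and 0% of all probe sets did. At an unadjusted p under 0.05 the count became 2 of 20, or 10%, which were Dnmt3a on 1460324_at and Tet1 on 1419897_at. Their 95% intervals with the block ran from -0.72 to -0.08 for Dnmt3a and from -0.79 to -0.10 for Tet1, and these 2 were the only member intervals that left out 0 in that fit. The same rule took 10.1% of all tested probe sets, so the members' share lay at the background. The difference was negative in all 3 numbers for 6 of 20 members (30%), against 23.4% of all probe sets, and positive in all 3 for 0 of 20, against 14.1%. The 6 were both Tet2 probe sets, 2 of Dnmt3a, 1 of Tet1 and 1 of Uhrf2.

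The negative values were not even over the replicate numbers. The median difference over the 20 members was -0.049 in number 1, -0.17 in number 2 and -0.13 in number 3, and over all tested probe sets it was -0.0017, -0.094 and -0.025. In number 2, 17 of the 20 members were negative, as were 20090 of all 33778 tested probe sets. The array of mrhl siRNA replicate 2 was the lowest of the 6 arrays for 13 of 20 members (65%), against 25.7% of all tested probe sets; members measured on 1 array share its RNA, so these are not 13 independent observations. Without that array the members' median log2 fold change was -0.023 and 12 of 20 were negative, against -0.12 and 15 with it. Without both arrays of replicate number 2 the median was -0.099 and 12 of 20 were negative. The share of all probe sets that were negative was not counted for either of these fits. The 18S ribosomal RNA control row (3' probe set) also differed most in number 2, with log2 levels of 3.57, 3.00 and 6.76 after mrhl siRNA and 2.99, 7.83 and 6.48 after scrambled siRNA, whereas the 3' rows of Gapdh and beta-actin lay within 13.10 and 13.45 on all arrays. The part of the 18S signal in the members' values was not tested.

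**Figure D3:**
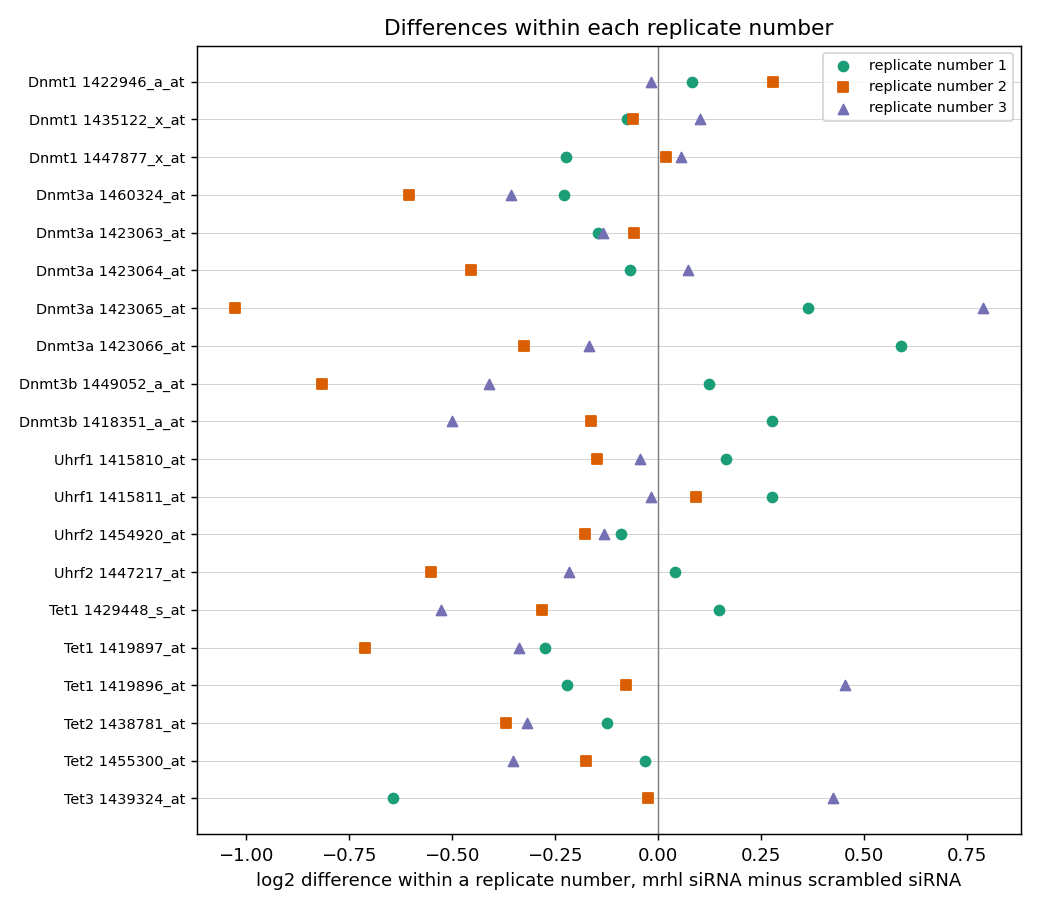
Log2 difference, mrhl siRNA minus scrambled siRNA, within each replicate number (symbols) for the 20 tested member probe sets. In number 2 (squares) 17 of 20 lie below 0, against 20090 of all 33778 tested probe sets. The widest scatter belongs to Dnmt3a 1423065_at, from -1.03 to 0.79.

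Other genes of the pathway were taken from lists by function, each gene read through its brightest tested probe set, and none passed (limma, adjusted p = 0.965 for each gene named here, by smallest p in its list). Over all 14885 genes tested the median log2 fold change was -0.04 and 57.9% were negative. Of 10 partners of maintenance methylation, 8 were negative and 2 positive, with a median of -0.10. The chromatin remodeller Hells, needed for normal methylation levels, had 9.95 ± 0.10 after mrhl siRNA and 10.19 ± 0.16 after scrambled siRNA (SD, n = 3 each), a log2 fold change of -0.24 (SE 0.150), and its partner Cdca7 had 0.21 (SE 0.141). Of 17 S phase genes 13 were negative and 4 positive, with a median of -0.11. The S phase cyclin gene Ccne1 had -0.28 (SE 0.163) on 1441910_x_at, a probe set with the suffix x, and -0.077 (SE 0.208) on 1416492_at. The replication licensing gene Cdc6 had -0.23 (SE 0.171).

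Genes listed as readers of the mark and genes acting after the Tet enzymes gave small values in both directions. Of 8 genes listed as methyl-CpG readers 5 were negative and 3 positive, with a median of -0.08. A place on that list is not evidence that each protein binds methyl-CpG. Mbd3, a subunit of the NuRD complex, had 0.31 (SE 0.181), and Mbd4, a glycosylase that also binds methyl-CpG, had -0.29 (SE 0.188). Of 12 genes of base excision repair and its helpers 8 were negative, with a median of -0.05. Gadd45a, a stress-induced gene linked to demethylation, had 8.74 ± 0.31 after mrhl siRNA and 9.14 ± 0.32 after scrambled siRNA (SD, n = 3 each), with differences of -0.43, -0.36 and -0.40 in the 3 replicate numbers. Its log2 fold change was -0.40 (SE 0.228), and with the replicate block it did not pass either (limma adjusted p = 0.487). The DNA glycosylase gene Neil1 had 0.28 (SE 0.197).

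Tet cofactors and partners numbered 9, of which 5 were positive, with a median of 0.03. Cxxc4, which encodes a CXXC protein that binds CpG DNA and can lower Tet2 protein, had log2 levels of 4.56 ± 0.21 after mrhl siRNA and 4.08 ± 0.17 after scrambled siRNA (SD, n = 3 each) and a log2 fold change of 0.48 (SE 0.170) on 1437351_at. Its other tested probe set, 1456811_at, had -0.57 (SE 0.186), so no direction can be given for Cxxc4. Cxxc5 had 0.32 (SE 0.190). Of 16 histone partners 7 were positive, with a median of -0.031; Ehmt2, the H3K9 methyltransferase G9a, had 0.33 (SE 0.194) and the histone demethylase gene Kdm1b had -0.23 (SE 0.175). Of 13 genes of the S-adenosylmethionine cycle, which supplies the methyl group, 5 were positive, with a median of -0.04. Ahcy, which clears the by-product of methylation, had 0.18 (SE 0.144), and Bhmt had -0.26 (SE 0.249).

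Germline genes whose promoters are methylated in somatic cells were mostly dim. Of 19 with a probe set, 12 lay below the level for testing, among them Ddx4 and Dazl, defining genes of germ cells. Over all 18193 genes with a probe set, 14885 were bright enough to be tested. The 7 tested had 4 positive and 3 negative values, with a median of 0.12, which became -0.11 when each gene was read through the mean of its probe sets. Sycp3, of the synaptonemal complex, had -0.52 (SE 0.193) and Piwil2, a piRNA-binding protein, had -0.40 (SE 0.263).

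**Figure D4:**
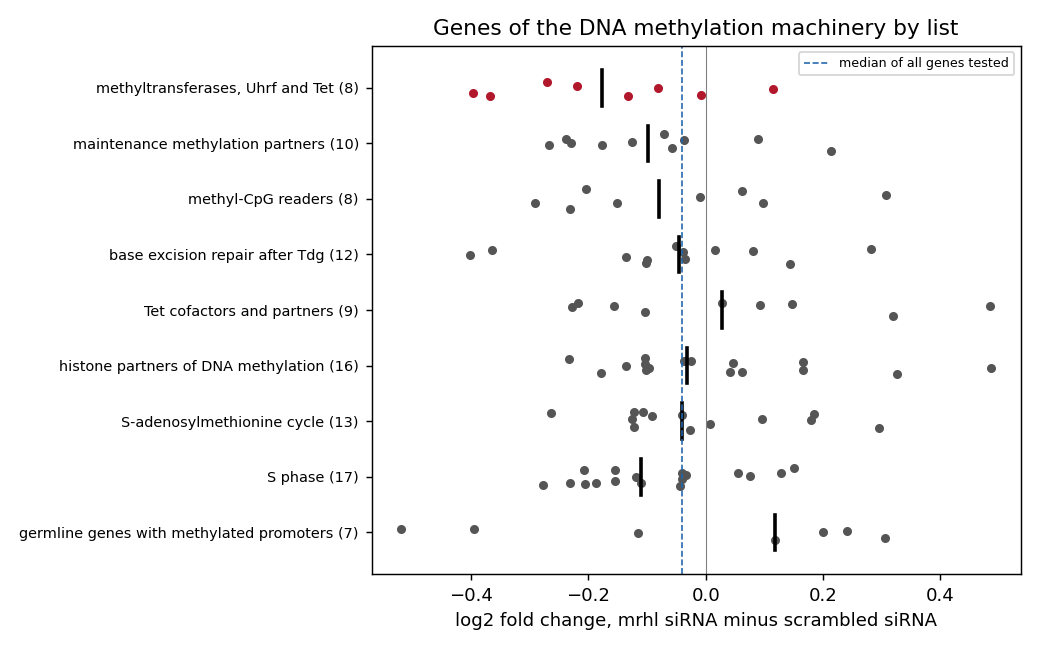
Log2 fold change, mrhl siRNA minus scrambled siRNA, of each tested gene (points, brightest probe set) in the DNA methylation set and 8 related lists, with the number of genes in brackets and the list median as a black bar. The dashed line is the median of all 14885 genes tested, at -0.04; all lists spread over both sides of 0.

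Checked against markers of the labelled cell type, 9 of 14 spermatogonial genes with a probe set were bright enough to be tested and 4 lay above the median level, namely Itga6, Uchl1, Id4 and Gfra1, while Ddx4, Dazl, Dmrt1, Sohlh1 and Thy1 lay below the level for testing. Sertoli cell markers were above it for 10 of 10 genes, Leydig cell markers for 5 of 6, fibroblast and myoid markers for 9 of 11, and blood and endothelial markers for 7 of 9. Above the median level were 7 Sertoli, 1 Leydig, 8 fibroblast and myoid, and 3 blood and endothelial genes. Of all 18193 genes with a probe set, 14885 were tested and 10983 lay above the median level, so most genes pass both limits. A level past the limit for testing is not by itself a call of expression. The log2 of the summed fibroblast and myoid signal was 14.79 to 14.91 after mrhl siRNA and 14.55 to 14.87 after scrambled siRNA. In that list 8 of 9 tested genes were positive, with a median of 0.31. Its collagen gene Col3a1 had the highest log2 fold change of all 33778 probe sets tested, 2.04 (SE 0.244), with 7.89 ± 0.34 after mrhl siRNA and 5.85 ± 0.36 after scrambled siRNA (SD, n = 3 each), groups that did not overlap (limma adjusted p = 0.965, and 0.213 with the replicate block). The list's part in the members' values was not tested. Array medians lay between 5.19 and 5.30, and arrays correlated at 0.970 to 0.989 over the tested probe sets.

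Profiles like those of 3 members were sought among genes that varied at least as much over the 6 arrays, by the root-mean-square difference of log2 values after each profile was centred on its mean. For Dnmt1 (1422946_a_at) the nearest of 10922 genes were Proser1 at 0.019, Rassf7 at 0.027 and Htr6 at 0.028. For Uhrf1 (1415810_at) the nearest of 13329 were Rps9 at 0.021, Capn15 at 0.029 and Uqcrq at 0.029. For Dnmt3b (1449052_a_at) the nearest of 3740 were Aste1 at 0.077, Zfp850 at 0.082 and Zfp74 at 0.094. The members' own SDs over the arrays were 0.14 for Dnmt1, 0.073 for Uhrf1 and 0.30 for Dnmt3b. The distances are thus not comparable between the members. These profiles rest on 6 arrays and are given as a description.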

How the data were processed

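Each deposited value is a log2 expression value of 1 probe set on 1 array. The authors used GCOS and PLIER, per the submitters' processing notes; their versions, settings and any normalization between arrays were not stated. Negative values among them show the log2 scale, and no further normalization was applied. Sample titles gave the groups and replicate numbers.

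Of 45101 rows, 64 control rows were left out. The probe table gave 1 symbol for 34945 of the remaining 45037 probe sets and several for 932, and 9160 were not in it. Probe sets whose mean lay under the 25th percentile (3.62) were dropped, leaving 33778. limma 3.58.1 (lmFit, eBayes; R 4.3.3) tested mrhl siRNA minus scrambled siRNA. P-values were adjusted by Benjamini-Hochberg over these 33778 and called at 0.05. Log2 fold changes had a median SE of 0.192 (0.132 with the block), a precision limited by the number of arrays. Figures used matplotlib 3.10.9.

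To see whether equal replicate numbers pair the arrays, deviations from group means were correlated. Equal numbers gave 0.534, 0.201 and 0.567 and unequal numbers -0.518 to 0.0684. All equal ones exceeded 0.1, so numbers were taken as pairs; the design text speaks of 3 independent experiments. Both fits were checked on simulated arrays: with pair effects and 33778 probe sets, the fit without the block recovered 75% of 4-fold and 0% of 2-fold changes, and the blocked fit 50% and 0%.

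The members, lists and tests were chosen with earlier results of these data known. Named were all members, the 2 genes of each list with the smallest p, and the 3 profiles nearest to Dnmt1, Uhrf1 and Dnmt3b. Other scalings (quantile, or medians at 0), other filters (none, or the median), the replicate block, trended robust variances, weighted arrays, and fits lacking an array or a replicate number were tried, as was averaging a gene's probe sets.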

Additional observations from a re-analysis of the deposited data

How the results depend on the processing

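Under all 16 alternative fits, 0 of the member probe sets and 0 of all tested probe sets passed an adjusted p of 0.05 (limma). The count of all probe sets at an unadjusted p under 0.05 was 1163 in the fit without the block and 3411 with the replicate block, and it ran from 581 to 2406 when arrays were left out. Unadjusted, 2 of 20 members came under 0.05 with the replicate block, where 3411 of all 33778 probe sets did. With array weights it was 2 members and 2132 of all probe sets. Without mrhl siRNA replicate 3 it was 2 members and 2406 of all. In the fit without the block it was 0 members and 1163 of all. Over all settings the members' count ran from 0 to 2. The smallest adjusted p of a member was 0.487, with the replicate block. The block changed no call. Signs of small values turned with scaling: with quantile normalization Dnmt1 1435122_x_at had 0.025 and Uhrf1 1415810_at 0.022, and with array medians set to 0 Uhrf1 1415810_at had 0.0024. With array weights Dnmt3a 1423065_at had -0.26 and Dnmt3a 1423066_at -0.029. The cause was not tested. When each array, or both arrays of a number, was left out, 11 of 20 members kept their sign in all 9 fits, and all but Tet1 1419897_at moved by over 1.5 times in at least 1 of them. Their log2 fold changes ran from 0.013 to 0.18 for Dnmt1 1422946_a_at, -0.24 to -0.0028 for Dnmt3a 1423063_at, -0.57 to -0.24 for Dnmt3a 1460324_at, -0.61 to -0.14 for Dnmt3b 1449052_a_at, -0.60 to -0.31 for Tet1 1419897_at, -0.40 to -0.06 for Tet1 1429448_s_at, -0.41 to -0.14 for Tet2 1438781_at, -0.26 to -0.06 for Tet2 1455300_at, 0.029 to 0.21 for Uhrf1 1415811_at, -0.39 to -0.038 for Uhrf2 1447217_at and -0.18 to -0.06 for Uhrf2 1454920_at. The members that changed sign ran from -0.068 to 0.028 for Dnmt1 1435122_x_at, -0.13 to 0.037 for Dnmt1 1447877_x_at, -0.30 to 0.0024 for Dnmt3a 1423064_at, -0.54 to 0.63 for Dnmt3a 1423065_at, -0.25 to 0.23 for Dnmt3a 1423066_at, -0.33 to 0.057 for Dnmt3b 1418351_a_at, -0.23 to 0.26 for Tet1 1419896_at, -0.33 to 0.20 for Tet3 1439324_at and -0.10 to 0.061 for Uhrf1 1415810_at. The median of the germline list was 0.12, and -0.11 with the mean of each gene's probe sets; all other list medians moved by less than their SD over replicate numbers, although that of the histone partners turned from -0.031 to 0.04. On simulated arrays with pair effects, 2-fold changes of single probe sets were not recovered, while without pair effects 59% were in the fit without the block. The simulated noise of each probe set was its own SD left after the blocked fit. Recovery thus depends on that setting as well as on the arrays' precision.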
